A study of Homo sapiens with 5 samples.

Results

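The cytosolic heat shock and chaperonin genes of this series were a set of 43 genes chosen by name, from the 58174 genes of the deposited table. The set holds 2 heat shock transcription factors, 6 HSP70 genes, 3 HSP110 genes, 2 HSP90 genes, 3 small heat shock proteins, 7 J-domain co-chaperones, 3 BAG genes, 9 co-chaperones of HSP70 and HSP90, and 8 subunits of the chaperonin CCT. Each of the 43 symbols matched 1 row. Of these, 42 had a mean of at least 1 TPM (transcripts per 1000000, an abundance corrected for gene length and scaled to the same total in each library) and were tested. HSPB8, a small heat shock protein, was left out by that filter at 0.312, 0.00 and 0.409 TPM in one group and 0.333 and 0.121 TPM in the other.

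RNA was sequenced from Ishikawa cells, an established line from a human endometrial carcinoma. Cells of 3 libraries (sh-LINC00958, libraries 1 to 3) carried a lentiviral short hairpin RNA against the long non-coding RNA LINC00958, and those of 2 libraries (sh-NC, libraries 1 and 2) were the negative control. The labels describe selection with puromycin at 2.5 µg/ml, begun 72 h after infection, for all of them. They name neither the number of hairpins nor clones. They also leave unsaid whether replicate libraries are separate cultures, and the p-values therefore cover the spread between libraries only, which may be technical.

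The targeted RNA, LINC00958, stood at 67.2, 67.1 and 58.4 TPM with the hairpin and at 119 and 137 TPM in the controls (log2 fold change -0.99, limma adjusted p = 0.0119). All 8 epithelial markers of endometrium were present, with a summed level of 2404 to 2575 TPM against 2433 to 2436 TPM in the controls. Of these 8, 1 had a limma adjusted p under 0.05. The summed markers of fibroblasts were at 5.31 to 5.87 against 4.94 to 5.10 TPM, those of blood cells at 2.80 to 4.05 against 1.73 to 3.40 TPM, and those of endothelium at 4.55 to 6.28 against 6.93 to 7.50 TPM. In these lists, DCN, CD3E, HBB and KDR were at 0 in all 5 libraries, while other markers were detected. The highest were COL1A1 for fibroblasts, CD68 for blood cells and CDH5 for endothelium, at 4.81, 2.63 and 2.64 TPM on average. A mean of at least 1 TPM was reached by 1 fibroblast, 1 blood cell and 3 endothelial markers.

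Chaperones bind unfolded or half-made proteins and keep them from aggregating. HSP70 holds short stretches of a chain, with J-domain proteins delivering the client and BAG and HSP110 proteins releasing it by exchange of the bound nucleotide. HSP90 acts later, on kinases and steroid receptors among other clients, and its co-chaperones load the client, time the ATPase cycle or add enzymatic activity. CCT is a ring-shaped complex of different subunits that folds actin and tubulin. Heat shock factor 1 (HSF1) switches many of these genes on when unfolded protein accumulates, by binding heat shock elements, which are inverted repeats of a short unit. In the endometrium, HSP90 and its immunophilin partners are best known for keeping estrogen and progesterone receptors ready to bind hormone.

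Summed over the set, the chaperone transcripts differed little between the groups, with a ratio of group means of 1.015, although each sh-LINC00958 library lay above both controls. The summed level of the 43 genes was 13230.0, 12967 and 13026 TPM with the hairpin and 12824 and 12944 TPM in the controls, or 1.297% to 1.32% against 1.28% to 1.29% of all TPM. HSPA8, the constitutive HSP70, was the most abundant member in every library. HSP90AB1 and HSP90AA1 came next, so that these 3 genes together held 5779 to 6008 TPM with the hairpin and 5299.6 and 5395 TPM in the controls. The lowest tested members were CRYAB, DNAJB5 and HSPA2, with control means of 3.33, 3.91 and 6.96 TPM, and HSPB8 lay below them at 0.227 TPM.

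**Figure D1:**
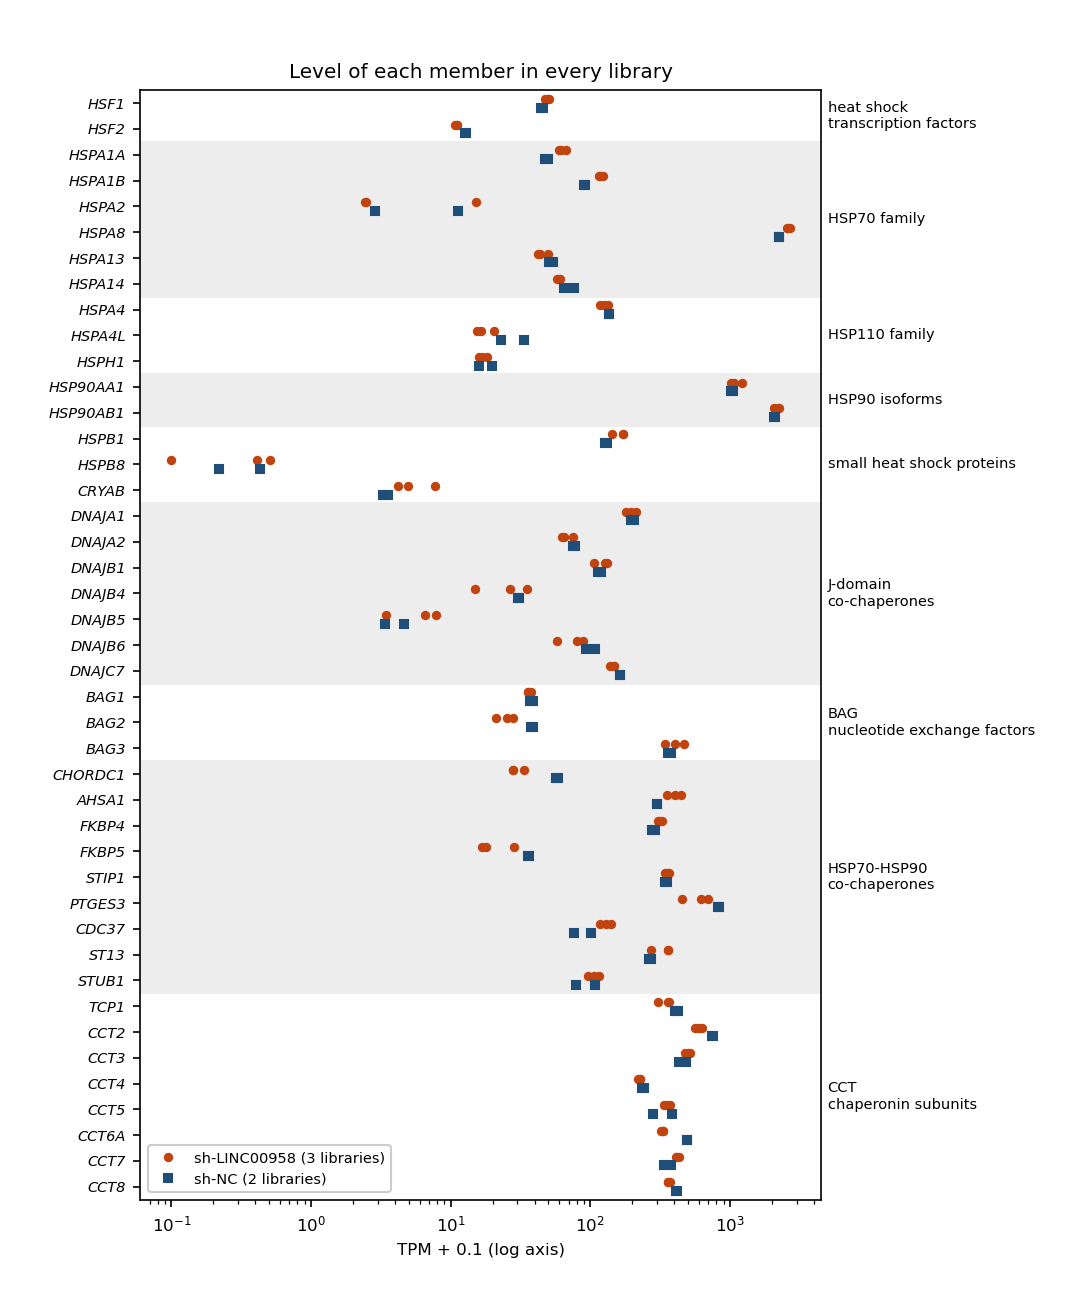
Level of each of the 43 chaperone genes in every library, as TPM + 0.1 on a horizontal log axis, with 1 row per gene, rows grouped by role, circles for the 3 sh-LINC00958 and squares for the 2 sh-NC libraries. HSPA8, HSP90AB1 and HSP90AA1 lie furthest right, at 1014 TPM or more in every library, and CHORDC1, CCT6A and BAG2 show the sh-LINC00958 circles apart from and to the left of the sh-NC squares.

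Changes went both ways, and 5 of the 42 tested genes passed the threshold (limma, adjusted p under 0.05 over all 17049 genes tested). CHORDC1, CCT6A, BAG2 and CCT2 fell and HSPA1B rose. That is 11.9% of the members, beside 9.80% of all tested genes, of which 4.12% were called higher and 5.68% lower, so the share of members called was near that of genes in general. Fitted differences were positive for 20 members and negative for 22, with a median log2 fold change of -0.047, beside 0.0014 over all tested genes. The 3 sh-LINC00958 values did not overlap the 2 control values for 28 members, 11 higher and 17 lower, or 66.7% of the members beside 49.9% of all tested genes. The sh-LINC00958 group was separated in this way above the controls in 24.4% and below them in 25.5% of all genes. In these bulk libraries, fewer cells that express a gene and less of its RNA per cell cannot be told apart.

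With 1 library left out, the size of the 5 differences moved little while the number of calls moved much, over all genes as over the members. CHORDC1 ranged from -1.02 to -0.89, CCT6A from -0.58 to -0.56, BAG2 from -0.69 to -0.50, CCT2 from -0.38 to -0.29 and HSPA1B from 0.36 to 0.40 on the log2 scale. Without sh-LINC00958 library 1, limma called 0 members, with 36 higher and 51 lower over all 17049 genes, and 14 members had an unadjusted p under 0.05, as had 3864 of all genes. Without sh-NC library 1 it called 0 members, with 21 and 12 overall and 11 members and 3649 genes at such a p, and without sh-NC library 2 it called 0, with 10 and 6 overall and 10 members and 3463 genes. In these last fits the lone control is assumed to vary like the sh-LINC00958 libraries, and with so few calls over all genes they say little about the members. With all libraries, 18 members had an unadjusted p under 0.05, beside 30.7% of all tested genes. Without sh-LINC00958 library 3, CHORDC1, CCT6A and FKBP5 were called, with 112 higher and 145 lower overall. Without sh-LINC00958 library 2, 4 members were called higher (HSPA1B, HSPA8, HSPB1, ST13) and 4 lower, with 904 and 1486 overall. The exact permutation p of each of the 5 genes, two-sided, was 0.1, which is the lowest value that a design of 3 against 2 libraries allows.

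**Figure D2:**
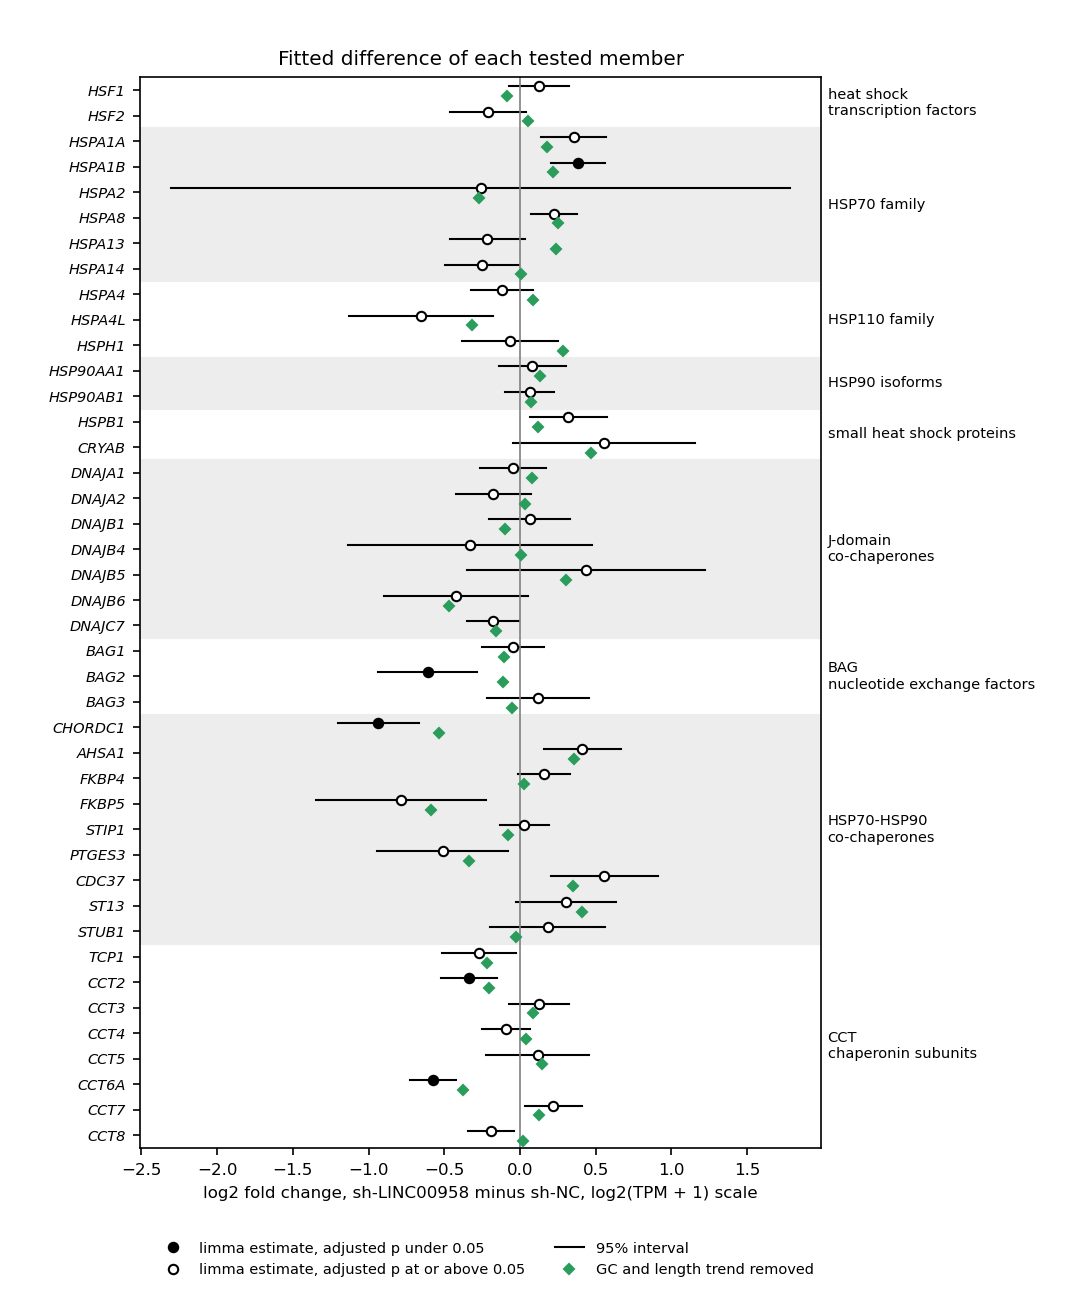
Fitted log2 fold change of the 42 tested chaperone genes (sh-LINC00958 minus sh-NC, log2(TPM + 1) scale), as circles with 95% intervals from limma, filled where the adjusted p was under 0.05; green diamonds give the value after the trend with GC content and transcript length was removed. CHORDC1 at -0.93 and CCT6A at -0.57 stand furthest from 0 relative to their intervals, and the interval of HSPA2 runs from -2.30 to 1.78.

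Neither heat shock factor passed the test. HSF1 measured 46.97, 49.7 and 50.3 TPM with the hairpin and 44.2 and 45.5 TPM in the controls (log2 fold change 0.12, adjusted p = 0.350). HSF2, a related factor that can pair with HSF1, measured 11.1, 11.05 and 10.6 TPM against 12.9 and 12.6 TPM (-0.21, adjusted p = 0.223). The groups did not overlap for either gene, as for 49.9% of all tested genes. Both directions turned when the trend with GC content and length was removed, to -0.084 for HSF1 and 0.056 for HSF2. By limma, 0 of the 2 had an unadjusted p under 0.05.

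The promoters of the set carry the letters that HSF1 recognizes more often than promoters do in general. RefSeq promoter windows on GRCh38.p14, from 250 bases before to 50 bases after a start site, were at hand for 36 of the 43 genes. The genes without one were CCT6A, CRYAB, FKBP4, HSF1, HSPA14, ST13 and STUB1. A heat shock element of 3 units, searched on both strands as GAANNTTC followed by NNGAA or TTCNNGAA followed by NNTTC (N is any base), was present in 6 members (CHORDC1, DNAJA1, DNAJB6, HSP90AA1, HSP90AB1 and HSPA8), which is 16.7% of the 36, against 166 of 27305 RefSeq genes, or 0.608%. A shorter element of 2 units (GAANNTTC or TTCNNGAA, which every element of 3 units also holds) was present in 18 of the 36 members, against 16.2% of all genes. The set includes genes known as HSF1 targets, so no test was made, and a match of letters does not show that a factor binds there.

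The elements of the abundant chaperones and of the called genes for which a window was at hand are shown because they let the called genes be compared with the textbook HSF1 targets. One element per gene is given, in the direction of the gene on GRCh38.p14 with 20 bases on either side. Capitals mark the element. For CCT2, HSP90AA1 and HSP90AB1, the window nearest the annotated gene start holds no element. Theirs comes from a window further into the gene.
CHORDC1 (chr11:90223067-90223129, minus strand): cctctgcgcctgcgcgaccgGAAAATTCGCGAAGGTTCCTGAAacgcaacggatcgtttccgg
HSPA8 (chr11:123062159-123062211, minus strand): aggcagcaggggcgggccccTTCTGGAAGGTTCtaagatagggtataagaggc
HSP90AA1 (chr14:102087100-102087152, minus strand): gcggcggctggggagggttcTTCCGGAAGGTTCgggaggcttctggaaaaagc
HSP90AB1 (chr6:44247811-44247863, plus strand): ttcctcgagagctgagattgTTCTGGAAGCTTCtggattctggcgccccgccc
HSPA1A (chr6:31815417-31815464, plus strand): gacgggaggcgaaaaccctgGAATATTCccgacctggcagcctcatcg
HSPA1B (chr6:31827613-31827660, plus strand): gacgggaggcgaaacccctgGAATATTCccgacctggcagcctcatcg
BAG2 (chr6:57172182-57172229, plus strand): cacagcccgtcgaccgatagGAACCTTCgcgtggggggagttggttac
CCT2 (chr12:69585780-69585827, plus strand): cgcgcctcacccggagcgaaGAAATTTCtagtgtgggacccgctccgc

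In CHORDC1 the units run on without a break into a block of 23 bases, longer than the 13 bases of the others of 3 units. The 6 genes with an element of 3 units had estimates of both signs. Their log2 fold changes were -0.93 for CHORDC1, -0.42 for DNAJB6, -0.047 for DNAJA1, 0.066 for HSP90AB1, 0.082 for HSP90AA1 and 0.23 for HSPA8, and of these only CHORDC1 passed the test.

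In the HSP70 family, HSPA1B rose and the other genes did not pass. HSPA1B and HSPA1A are neighbouring genes for the stress-inducible HSP70, with nearly the same protein. HSPA1B (ENSG00000204388, GRCh38 chromosome 6, 31827735 to 31830255, plus strand) measured 117, 123 and 115 TPM with the hairpin and 90.9 and 90.0 TPM in the controls. All 3 values lay above both controls, with group means of 118 ± 4.20 TPM (SD, n = 3) against 90.4 ± 0.648 TPM (SD, n = 2). This is a log2 fold change of 0.38 ± 0.072 (SE), with a 95% interval of 0.21 to 0.56 and a limma adjusted p of 0.0334.

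HSPA1A (ENSG00000204389, chromosome 6, 31815464 to 31817946) measured 61.9, 66.8 and 59.1 TPM against 47.5 and 49.9 TPM, again without overlap (0.35, adjusted p = 0.0609). Of all 75-base stretches in their annotated transcripts, 69.3% of those of HSPA1A and 73.2% of those of HSPA1B also occur in another gene, almost all in each other, so the split of reads between them is uncertain. The ratio of HSPA1B to HSPA1A was 1.89 ± 0.052 (SD, n = 3) with the hairpin and 1.86 ± 0.078 (SD, n = 2) in the controls. Summed as 1 gene, an addition made after the data were seen, they measured 179, 190.0 and 174 TPM against 138 and 139.9 TPM (log2 fold change 0.38, limma adjusted p = 0.0350).

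HSPA8 had the largest difference in TPM of all 43 genes. It measured 2597, 2559.8 and 2685 TPM with the hairpin and 2243 and 2228 TPM in the controls, and the groups did not overlap (log2 fold change 0.23, 95% interval 0.076 to 0.37, adjusted p = 0.0711). The summed HSP70 family, most of it HSPA8, stood at 2881, 2863 and 2974 TPM against 2500.1 and 2510.1 TPM. HSPA13, an HSP70 relative found with microsomes, and HSPA14, which works at the ribosome, had negative estimates (-0.22 and -0.25) that did not pass. HSPA14 stood at -0.13 without sh-NC library 2. Of its transcript stretches, 15.1% also occur in another gene, almost all in one annotated under the same name, which makes its value uncertain. HSPA2, known from spermatogenesis, varied more within the groups than between them, at 2.37, 2.32 and 15.1 TPM against 2.76 and 11.2 TPM.

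The HSP110 genes, which release nucleotide from HSP70, gave 0 calls by limma, with 1 of 3 at an unadjusted p under 0.05. That gene was HSPA4L, at 15.4, 20.3 and 16.3 TPM against 23.0 and 33.3 TPM (log2 fold change -0.65, adjusted p = 0.0868). Its groups did not overlap, but the controls differed from each other by more than the lower control differed from the highest sh-LINC00958 value, and without sh-NC library 2 the estimate was -0.39. HSPA4 and HSPH1 had estimates of -0.12 and -0.064.

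Both HSP90 isoforms had overlapping groups. HSP90AA1, the stress-inducible isoform, measured 1066, 1211 and 1020.0 TPM against 1058 and 1014 TPM, and HSP90AB1, the constitutive one, 2209.9, 2237 and 2074 TPM against 2094 and 2058 TPM. Their log2 fold changes were 0.082 (95% interval -0.14 to 0.30) and 0.066 (-0.096 to 0.23), and limma gave 0 of the 2 an unadjusted p under 0.05. The ratio of HSP90AB1 to HSP90AA1 was 1.98 ± 0.12 (SD, n = 3) with the hairpin and 2.00 ± 0.035 (SD, n = 2) without it.

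Small heat shock proteins hold unfolded proteins without ATP. The 2 tested genes had values above both controls in every sh-LINC00958 library, as had 24.4% of all tested genes. HSPB1, also called HSP27, measured 173, 143 and 171 TPM against 132 and 127 TPM (0.32, adjusted p = 0.104). CRYAB, alpha-B crystallin, measured 4.81, 4.12 and 7.68 TPM against 3.48 and 3.19 TPM (0.56, adjusted p = 0.188). Neither difference passed in limma, where 1 of the 2 had an unadjusted p under 0.05, and library 3 of sh-LINC00958 gave CRYAB its highest value, without which the estimate was 0.33.

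No J-domain member passed in limma, with 1 of 7 at an unadjusted p under 0.05. This was DNAJC7, which binds both HSP70 and HSP90, at 148, 147 and 139 TPM against 164 and 163 TPM (log2 fold change -0.18, adjusted p = 0.1501). DNAJB1, the main partner of inducible HSP70, and DNAJA1 had overlapping groups with estimates of 0.063 and -0.047. DNAJB6, which keeps aggregation-prone proteins soluble, measured 57.6, 89.0 and 80.8 TPM against 93.4 and 108 TPM, and DNAJB4 measured 14.9, 35.1 and 26.4 TPM against 30.1 and 30.9 TPM. In both genes sh-LINC00958 library 1 was the lowest of the 5, and without it the estimates went from -0.42 to -0.24 for DNAJB6 and from -0.33 to -0.0019 for DNAJB4. The intervals of DNAJB4 (-1.14 to 0.48) and DNAJB5 (-0.35 to 1.22) leave changes in either direction possible.

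Among the BAG proteins, nucleotide exchange factors of HSP70, BAG2 fell. BAG2, which also inhibits the ubiquitin ligase CHIP, is ENSG00000112208 on chromosome 6, 57172326 to 57189833, plus strand. It measured 25.4, 27.6 and 21.0 TPM with the hairpin and 37.2 and 38.7 TPM in the controls, without overlap (24.7 ± 3.39 TPM, SD, n = 3, against 38.0 ± 1.06 TPM, SD, n = 2). The fitted log2 fold change was -0.61 ± 0.133 (SE), with a 95% interval of -0.94 to -0.28 and a limma adjusted p of 0.0446.

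The BAG2 value has a particular limit in its position. The gene overlaps RAB23, a GTPase gene on the opposite strand, and 42.1% of the 75-base stretches of its transcripts also occur in RAB23 transcripts. The strand setting of the counting is not given in the sources used here, so it is unknown whether reads of the 2 genes were told apart there. RAB23 measured 3.59, 9.86 and 7.35 TPM against 14.8 and 14.7 TPM (-1.08, adjusted p = 0.107). BAG1, an antiapoptotic partner of BCL2, and BAG3, an HSF1 target that works in selective autophagy, had overlapping groups and estimates of -0.047 and 0.12.

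CHORDC1 showed the largest fitted difference of all 42 tested members. It encodes a co-chaperone of HSP90 with cysteine- and histidine-rich zinc-binding domains, which also restrains the kinase ROCK2. The gene is ENSG00000110172 on chromosome 11, 90201160 to 90223364, minus strand. CHORDC1 measured 28.0, 33.5 and 28.0 TPM with the hairpin and 58.6 and 56.8 TPM in the controls, so that its highest sh-LINC00958 value lay far below its lower control. On average this was 29.8 ± 3.14 TPM (SD, n = 3) against 57.7 ± 1.26 TPM (SD, n = 2). The fit gave -0.93 ± 0.109 (SE) on the log2 scale, with a 95% interval of -1.20 to -0.67 and a limma adjusted p of 0.0135. Relative to HSP90AB1, CHORDC1 stood at 0.0137 ± 0.0012 TPM per TPM (SD, n = 3) with the hairpin and 0.0278 ± 0.00026 (SD, n = 2) without it.

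The other 8 co-chaperones of HSP70 and HSP90 did not pass, with estimates from -0.78 to 0.56. AHSA1, which speeds up the HSP90 ATPase, measured 446, 401 and 357 TPM against 299.5 and 301 TPM (0.41, adjusted p = 0.0625). CDC37, which brings kinases to HSP90, measured 118, 130.0 and 141 TPM against 75.9 and 101 TPM (0.56, adjusted p = 0.0651). Both genes had all sh-LINC00958 values above the controls, which differed from each other for CDC37, whose estimate was 0.35 without sh-NC library 1 and 0.76 without sh-NC library 2.

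FKBP5 and PTGES3 lay the other way. FKBP5, an immunophilin of steroid receptor complexes and a well-known target of steroid hormones, measured 16.7, 17.9 and 28.5 TPM against 35.6 and 36.2 TPM (-0.78, adjusted p = 0.0833). PTGES3, the p23 protein that stabilizes the closed form of HSP90, measured 697, 457 and 619 TPM against 836 and 824 TPM (-0.51, adjusted p = 0.119). The sh-LINC00958 libraries varied among themselves in both genes, with library 3 the highest for FKBP5 and library 2 the lowest for PTGES3, while the 2 controls lay close together. Without library 2, PTGES3 stood at -0.34. FKBP4, the sister immunophilin of FKBP5, had an estimate of 0.16, and STIP1, the adaptor between HSP70 and HSP90, of 0.028. ST13 and STUB1, which encodes CHIP, had estimates of 0.30 and 0.18. Of their transcript stretches, 18.2% for ST13 and 28.2% for STUB1 are shared with other genes, which makes both values uncertain.

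In the chaperonin CCT, CCT6A and CCT2 fell, while the other subunits did not pass and lay on both sides of 0. CCT6A is ENSG00000146731 on chromosome 7, 56051630 to 56063989, plus strand, and holds the small nucleolar RNAs SNORA15 and SNORA22B. It measured 331, 333 and 321 TPM with the hairpin and 489 and 489 TPM in the controls (328 ± 6.47 TPM, SD, n = 3, against 489 ± 0.359 TPM, SD, n = 2). The groups lay far apart compared with the spread within either. The estimate was -0.57 ± 0.062 (SE) on the log2 scale, with a 95% interval of -0.72 to -0.42 and a limma adjusted p of 0.0120.

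CCT2 (ENSG00000166226, chromosome 12, 69585334 to 69601570, plus strand) was the most abundant subunit in every library. It measured 597, 631 and 558 TPM against 742 and 759 TPM, without overlap. Its group means were 595 ± 36.9 TPM (SD, n = 3) against 750.5 ± 11.99 TPM (SD, n = 2). The limma adjusted p of 0.0483 was just inside the threshold, for an estimate of -0.34 ± 0.076 (SE) with a 95% interval of -0.52 to -0.15. None of the 75-base stretches of CCT2 and 0.951% of those of CCT6A occur in another gene.

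Of the other subunits, TCP1 (-0.27, adjusted p = 0.132), CCT8 (-0.19, adjusted p = 0.104) and CCT4 (-0.091, adjusted p = 0.390) had all sh-LINC00958 values below the controls. CCT7 (0.22, adjusted p = 0.123) had all of them above, at 408, 431 and 416 TPM against 380.2 and 339 TPM. Without sh-NC library 2, CCT7 stood at 0.14. Over all tested genes, 25.5% were separated in this way below the controls and 24.4% above them. CCT3 and CCT5 overlapped, and CCT5 differed between the controls, at 279.9 and 382 TPM. Of the transcript stretches of CCT5, 27.6% also occur in another gene, which makes its value uncertain. Almost all of these are in AC012640.4 on the opposite strand, listed at 0.259 TPM on average. The summed level of the 8 subunits was 3167, 3103 and 3112 TPM with the hairpin and 3394 and 3518 TPM in the controls. This sum, which includes the called CCT6A and CCT2, was lower in each sh-LINC00958 library than in either control. Of the 8 estimates, 3 were positive and 5 negative, with a median of -0.14. With the GC and length trend removed the median was 0.031.

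Assembled CCT holds its 8 subunits in equal numbers as protein. TPM measures RNA and not subunit protein, so the equal share of 12.5% of the summed TPM is only a reference. CCT6A took 10.5%, 10.7% and 10.3% of the sum with the hairpin and 14.4% and 13.9% in the controls, and went from rank 2 to rank 7 of the 8 by group mean. CCT2 took 19.0% ± 1.23 (SD, n = 3) against 21.7% ± 0.205 (SD, n = 2). The shares of CCT3 (15.95% ± 0.555 against 13.2% ± 0.818) and CCT7 (13.4% ± 0.503 against 10.4% ± 1.11) were higher in every sh-LINC00958 library than in either control. So were those of CCT5 (11.3% ± 0.441 against 9.55% ± 1.84) and CCT4 (7.16% ± 0.178 against 6.90% ± 0.0184), although the TPM of CCT4 was lower in every sh-LINC00958 library. The separation of CCT5 was narrow, with 10.93% in sh-LINC00958 library 2 against 10.85% in sh-NC library 2. The share of CCT5 in sh-NC library 1 was 8.25%. A share rises when other subunits fall, so a higher share alone does not mean a higher level. The most abundant subunit transcript, CCT2, stood at 2.71, 2.79 and 2.48 times the least abundant, CCT4, with the hairpin. In the controls it stood at 3.17 and 3.12 times. This narrower range with the hairpin includes the fall of CCT2 already given. These shares come from the same values as the fold changes, and carry no test of their own.

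**Figure D3:**
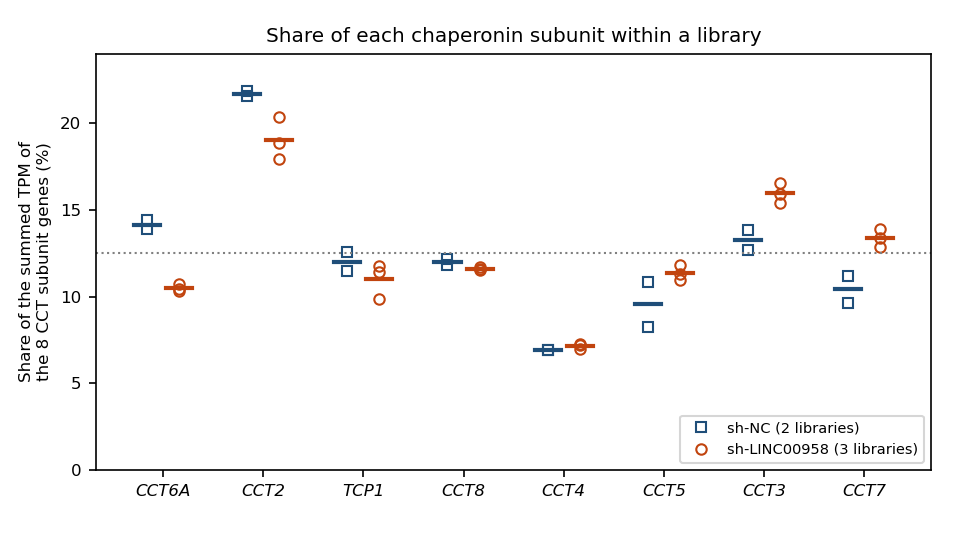
Share of each CCT subunit gene in the summed TPM of the 8 subunit genes, in percent, with squares for the 2 sh-NC libraries, circles for the 3 sh-LINC00958 libraries and bars for the group means; the dotted line marks an equal share of 12.5%. CCT6A lies at 14.1% on average in the controls and 10.5% with the hairpin, and the shares of CCT3, CCT4, CCT5 and CCT7 lie higher with the hairpin.

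The estimates of the members went with the base composition of their transcripts. Across the 42 tested members, the log2 fold change increased with transcript GC content (36.6% to 64.3%), with Pearson's r = 0.70 and Spearman's rho = 0.76, beside 0.43 and 0.49 across 16999 tested genes. The points are genes of the same 5 libraries and not independent, so this is a description. Across 50 other tested genes of chaperone work, described further on, both coefficients were 0.75. Among the 21 members of lower GC content (up to 46.0%), 18 had a negative estimate and 3 a positive one, and all 4 genes that fell are among them. Among the 21 of higher GC content, 17 were positive and 4 negative, with HSPA1B as the one called.

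After the trend with GC content and transcript length over all genes was taken out of each library, 2 members were called, beside 387 genes called higher and 449 lower overall. They were CHORDC1, at -0.54 (limma adjusted p = 0.0238), and CCT6A, at -0.38 (adjusted p = 0.0336). The values became -0.11 for BAG2 (adjusted p = 0.495), -0.21 for CCT2 (adjusted p = 0.0926) and 0.22 for HSPA1B (adjusted p = 0.134). HSPA8 stayed at 0.25 (adjusted p = 0.107) and AHSA1 at 0.35 (adjusted p = 0.0895), whereas 15 members that were not called turned in direction. What links GC content to these differences was not tested.

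**Figure D4:**
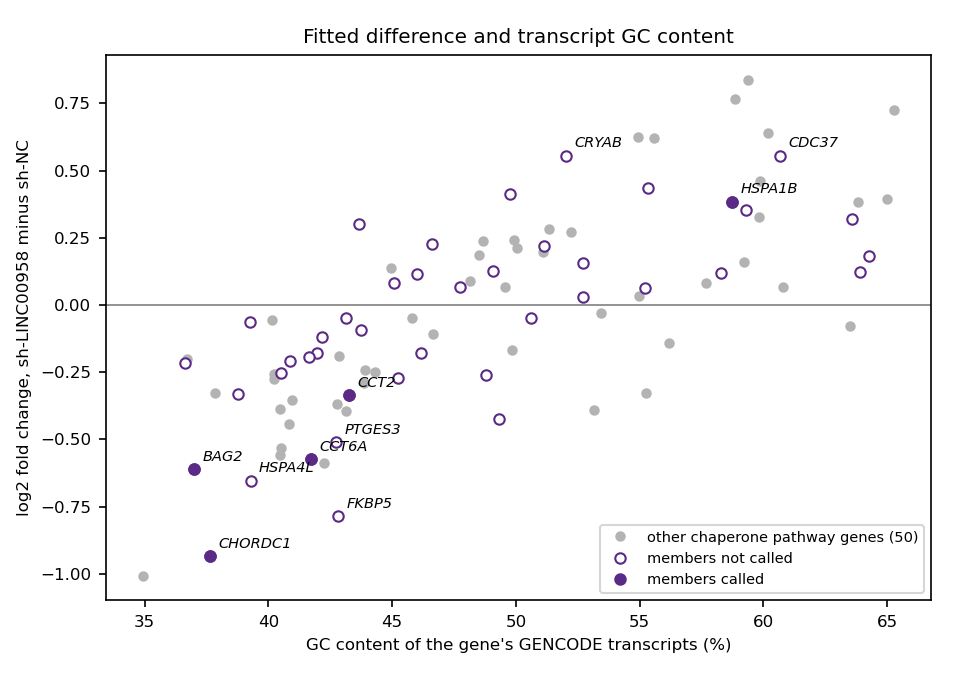
Log2 fold change (sh-LINC00958 minus sh-NC, log2(TPM + 1) scale) of the 42 tested chaperone genes against the GC content of their annotated transcripts in percent, 1 point per gene, with filled violet circles for members past the threshold, open ones for the other members and grey points for the 50 other chaperone genes tested; the names mark members that passed or had a change of at least 0.5. CHORDC1, BAG2, CCT6A and CCT2 lie at 37.0% to 43.3% GC and below 0, and HSPA1B lies at 58.7% and above 0.

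Of 55 other genes of chaperone work, in 6 lists, 50 were tested, and 6 rose and 5 fell. The lists were drawn up with earlier results of these libraries known, so the count is a description, beside the 9.80% called over all tested genes. Among 13 further HSP90 co-chaperones, UNC45A, NUDC, SGTA and FKBP8 rose and CDC37L1 fell. UNC45A, which folds myosin heads with HSP90, measured 91.8, 87.9 and 90.4 TPM against 52.4 and 52.6 TPM (log2 fold change 0.77, limma adjusted p = 0.0089). NUDC, a dynein-associated co-chaperone, measured 181, 182 and 169 TPM against 115 and 114 TPM (0.63, adjusted p = 0.0135). Both kept 3 values well above the controls.

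SGTA, which hands on tail-anchored proteins, measured 146, 140.2 and 142 TPM against 96.5 and 111 TPM (0.46, adjusted p = 0.0321). FKBP8, an immunophilin of the mitochondrial outer membrane, had a log2 fold change of 0.39 (adjusted p = 0.0443). CDC37L1, a relative of CDC37, measured 14.5, 14.4 and 13.05 TPM against 19.8 and 22.3 TPM (-0.56, adjusted p = 0.0371), so that CDC37 and its relative had estimates of opposite sign.

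Among 12 tested further HSP70 and J-domain genes, HSPBP1 and DNAJB2 rose and DNAJB14, DNAJC21 and DNAJC14 fell. HSPBP1, a nucleotide exchange factor of HSP70, measured 63.7, 54.0 and 61.8 TPM against 36.6 and 34.8 TPM (0.73, adjusted p = 0.0194). DNAJB2, a J-domain protein with ubiquitin-interacting motifs, measured 11.1, 16.5 and 14.8 TPM against 7.06 and 7.71 TPM (0.84, adjusted p = 0.0430). DNAJB14, a J-domain protein of the endoplasmic reticulum membrane, showed the largest difference of these lists, at 15.6, 19.9 and 12.7 TPM against 32.5 and 33.0 TPM (-1.01, adjusted p = 0.0319). DNAJC21, needed for ribosome assembly, and DNAJC14 had log2 fold changes of -0.44 (adjusted p = 0.0455) and -0.39 (adjusted p = 0.0491), the latter above the threshold with a pseudocount of 0.1 (adjusted p = 0.0503).

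Of 9 prefoldin and CCT cofactor genes, 1 fell. This was PDCL, a phosducin-like protein that works with CCT to fold G-protein beta subunits, at 18.4, 22.03 and 17.9 TPM against 29.01 and 30.3 TPM (-0.59, adjusted p = 0.0386). Limma called 0 of 3 other BAG genes (0 with an unadjusted p under 0.05), where BAG5 had the smallest p at -0.24 (adjusted p = 0.174). In the list named for further small heat shock proteins and heat shock factors, the 3 tested genes were HSPB11, HSF4 and HSBP1. HSPB2, HSPB6 and HSPB7 were below the filter. Limma called 0 of the 3 (2 with an unadjusted p under 0.05), where HSPB11 had the smallest p at -0.26 (adjusted p = 0.0686).

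Of 10 other genes that HSF1 is known to induce, limma called 0, with 2 at an unadjusted p under 0.05, 5 positive and 5 negative estimates and a median log2 fold change of 0.030. HMOX1, heme oxygenase, had the smallest p of them, at 10.2, 11.1 and 12.7 TPM against 8.31 and 5.69 TPM (0.64, adjusted p = 0.0791), and stood at 0.40 without sh-NC library 2. Over the 6 lists, limma called 0 genes without sh-LINC00958 library 1, a fit with 36 higher and 51 lower over all genes. In that fit 16 of the 50 list genes had an unadjusted limma p under 0.05, beside 3864 of all 17049 genes. With all libraries it was 22 of 50, beside 5230 of all 17049 genes. Without sh-LINC00958 library 3, UNC45A and NUDC were the 2 called. Over all omissions, UNC45A ranged from 0.75 to 0.78, NUDC from 0.60 to 0.66 and HSPBP1 from 0.68 to 0.80. With the GC and length trend removed, 4 were called: UNC45A at 0.59 (adjusted p = 0.0126), NUDC at 0.49 (adjusted p = 0.0247), HSPBP1 at 0.52 (adjusted p = 0.0315) and DNAJC14 at -0.49 (adjusted p = 0.0332).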

How the data were processed

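The values are TPM, deposited by the authors as 1 table with 1 column per library. Per the submitters' processing notes, FastQC 0.11.2, Trimmomatic 0.36, HISAT2 2.0 and StringTie 1.3.3b were used with GRCh38. An annotation release or strand setting is not given in the sources used here. TPM keeps no sequencing depth, so the depth is unknown and no counting interval is given. Each library sums to about 1000000 TPM, with 27896 to 29411 genes above 0.

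The comparison was fitted with limma 3.58.1 in R 4.3.3 (eBayes with a mean-variance trend) on log2(TPM + 1), for the 17049 genes with a mean of at least 1 TPM over the 5 libraries. Fold changes on this scale understate the change of low genes. Two-sided p-values were adjusted by Benjamini and Hochberg over all tested genes at a threshold of 0.05, and all adjusted p-values come from this fit unless another setting is named. The script was tested on simulated data. Exact permutation tests used the absolute difference of means over all 10 splits (scipy 1.17.1).

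Positions, GC content and transcript length came from GENCODE release 29 (57836 gene IDs matched). Stretches of 75 bases shared between the transcripts of different genes were counted. For the trend correction, splines with 5 degrees of freedom each were fitted to GC content and length. Promoter windows came from RefSeq (GRCh38.p14).

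The members, the 6 lists and the markers were chosen with earlier results of these data known. Named are the called genes, the gene with the smallest p of each role group or list without a call, and any member with a fitted change of at least 0.5; others are named to account for the set, after their values were seen. The alternatives tried were the GC and length correction, pseudocounts of 0.1 or 5, testing without a filter or at a mean of at least 5 TPM, median-ratio scaling, no mean-variance trend, a replicate block, each library left out, and, chosen after seeing the data, the sum of HSPA1A and HSPA1B.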

Additional observations from a re-analysis of the deposited data

How the results depend on the processing

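Pseudocounts of 0.1 and 5 left every member's direction and call as they were, and 0.1 ended the call of DNAJC14 in the lists (adjusted p = 0.0503). Of the members, 1 was called higher and 4 lower. A mean of at least 5 TPM, which left out CRYAB, and median-ratio scaling each gave 2 higher, HSPA1A in addition. With no filter, 0 members were called higher and 2 lower, genes of the 6 further lists gave 3 and 0, and all genes 207 and 269, against 702 and 969. Without the mean-variance trend, the counts were 0 and 2 for members, 3 and 0 for the lists and 371 and 518 for all genes. With the GC and length trend removed, they were 0 and 2, 3 and 1, and 387 and 449. In these 3 settings, 17 of 43, 12 of 42 and 11 of 42 members had an unadjusted limma p under 0.05. In the main fit it was 18 of 42. Over all genes the counts were 6316 of 35238, 5051 of 17049 and 4204 of 16999, beside 5230 of 17049 in the main fit. Leaving out 1 library gave 0 to 4 members higher and 0 to 4 lower, 0 to 6 and 0 to 6 list genes, and from 10 to 904 and 6 to 1486 of all genes.

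The labels number the libraries of both groups, but nothing says that a number marks a shared culture. Deviations from the group means correlated at 0.0013 between the libraries numbered 1 and at 0.0497 between those numbered 2. Between sh-LINC00958 library 3 and sh-NC library 1, which differ in number, the correlation was 0.0483. The deviations of 2 controls mirror each other, so these values cannot decide whether a number marks a pair. In the fit with the replicate number as a block, library 3 has no partner and adds nothing to the estimates. The members' estimates therefore equal those without sh-LINC00958 library 3. This block fit called 0 genes higher and 2 lower, among them 0 and 0 members and 0 and 0 list genes. In it, 13 of 42 members had an unadjusted limma p under 0.05, beside 4213 of all 17049 genes. Like the omission of sh-LINC00958 library 3, it turned DNAJA1 to 0.0097.

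Removal of the GC and length trend turned the direction of 15 members, none of them called: HSF1 (-0.084), HSF2 (0.056), HSPA13 (0.24), HSPA14 (0.0079), HSPA4 (0.084), HSPH1 (0.29), DNAJA1 (0.078), DNAJA2 (0.032), DNAJB1 (-0.098), DNAJB4 (0.0064), BAG3 (-0.050), STIP1 (-0.078), STUB1 (-0.024), CCT4 (0.040) and CCT8 (0.022), and of HSPB11 (0.013) in the lists. The cause was not tested. With 1 library left out, the direction turned for HSPA2 (-1.11 to 0.59), HSPH1 (-0.21 to 0.084), DNAJA1 (-0.10 to 0.0097), STUB1 (-0.043 to 0.41) and CCT5 (-0.11 to 0.34).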
